A study of Mus musculus with 6 samples.

Results

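The genes of oxidative phosphorylation were followed in activated mouse CD4 T cells with and without Prmt5. Members were the protein-coding rows of the deposited count table whose symbols begin with Nduf, Uqcr, Atp5, Cox4, Cox5, Cox6, Cox7, Cox8 or mt-, together with Sdha, Sdhb, Sdhc, Sdhd, Cyc1 and Cycs. This rule found 109 of 54532 gene rows, of which 96 are encoded in the nucleus and 13 in the mitochondrial genome. After the filter on low counts, 101 members entered the tests, 89 nuclear and 12 mitochondrial, among 15685 genes. The symbols also bring in 8 tested Ndufaf assembly factors, which are not subunits, and Cox7a2l, which takes part in joining complexes.

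The analysed libraries came from 3 control and 3 knockout cultures, each given by the series as a biological replicate. Control cells carried the genotype iCD4-PRMT5fl/fl and knockout cells the genotype iCD4-PRMT5delta/delta, on the C57BL/6 background. The labels do not name the promoter or the induction scheme of the Cre behind the prefix iCD4, nor the age or number of animals per culture. Whole CD4 T cells from spleen and lymph nodes of both genotypes had been kept for 48 h on coated anti-CD3/CD28 with no added cytokine, so every library here is from activated cells. The library kit keeps the strand of total RNA after a ribosomal RNA removal step. The libraries are called control 1, 2 and 4 and knockout 1, 4 and 5, after their titles. Their columns carry 1 of 2 tags whose meaning is not given: CCPF22 for control 1, control 2 and knockout 1, and CCPF24 for control 4, knockout 4 and knockout 5. Only the title of knockout 4 ends in R2, and the meaning of that ending is not given either.

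The respiratory chain passes electrons from NADH through complex I and from succinate through complex II to ubiquinone, then through complex III, cytochrome c and complex IV to oxygen. Complexes I, III and IV pump protons across the inner mitochondrial membrane, and complex V, the ATP synthase, uses the returning protons to make ATP. Complex II is wholly nuclear-encoded, while the other complexes combine nuclear-encoded subunits with a few made inside the mitochondrion, where both strands of the genome are transcribed as long precursors that are cut into separate RNAs. Naive T cells that are activated enlarge their mitochondria and raise respiration as well as glycolysis. PRMT5 places symmetric dimethylarginine on histones and splicing proteins.

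The libraries held between 29623513 and 39832588 counts on genes. Prmt5 was at 134, 133 and 98.2 CPM (counts scaled to library size with TMM factors) in control 1, 2 and 4 and at 41.1, 34.2 and 36.7 CPM in knockout 1, 4 and 5, so its order goes with the labels. The summed CD4 T cell markers Cd3e, Cd3g, Cd4, Cd28 and Cd5 lay between 931 and 1258 CPM. Summed markers of other cells were low, and several reached higher in the knockout libraries. The 3 NK cell markers summed to 4.75 to 7.52 CPM in controls and 9.53 to 15.03 CPM in knockouts, the 4 B cell markers to 0.752 to 3.19 and 1.36 to 13.2 CPM, and the 4 macrophage markers to 1.89 to 5.36 and 2.95 to 16.2 CPM. Klrk1 made up most of the NK sum, at 4.36 to 6.95 CPM in controls and 9.24 to 13.6 CPM in knockouts. The other NK markers, Ncr1 and Klrb1c, overlapped between the genotypes. Between the tags, the 2 CD8 T cell markers summed to 7.08 to 9.002 CPM in CCPF22 and 14.7 to 19.6 CPM in CCPF24, and the CD4 T cell markers to 931 to 1030 and 1033 to 1258 CPM, with no overlap for either. Their single markers did not move together. Cd3g and Cd8b1 were higher in every CCPF24 library, while Cd4, Cd5, Cd28 and Cd8a overlapped. Cd3e went the other way, at 81.9 to 102 CPM in CCPF22 and 58.4 to 71.6 CPM in CCPF24. The part of all these markers in the results below was not tested. In such bulk RNA, fewer cells of a type and less RNA per cell cannot be told apart.

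Per kilobase of the table's gene length, the mean level over the 6 libraries spanned several orders of magnitude among members. The highest was mt-Co1, the catalytic subunit of complex IV, at 4850 CPM per kb. Among nuclear members the ATP synthase came first, with the catalytic subunit Atp5b at 1024 and its partner Atp5a1 at 471 CPM per kb. Complex IV followed with Cox8a at 402 and Cox4i1 at 307 CPM per kb. The medians of the role groups were 162 CPM per kb for the 14 tested nuclear members of complex IV, 117.7 for 9 of complex III, 109 for 17 of complex V, 104 for 4 of complex II, 70.3 for 7 core members of complex I and 57.4 for its 29 accessory members. The 8 assembly factors stood lowest, with a median of 11.8 CPM per kb and a highest value of 17.4 for Ndufaf1. The lowest tested complex IV member was Cox7a1 at 1.79 CPM per kb. The lowest in the complex V group was Atp5s at 2.64, which was placed there by its symbol.

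Complex IV has subunits that other tissues use in alternative forms, and here the common forms were the ones present. Cox4i1 lay between 184 and 285 CPM, while Cox4i2, the lung form, had 4 counts over all 6 libraries. Cox6a1 lay between 101 and 180 CPM, while the muscle form Cox6a2 had 20 counts in all. Cox7a2 lay between 87.4 and 178 CPM against 0.412 to 1.17 CPM for the muscle form Cox7a1. Cox8b, Cox8c, Cox7b2 and Ndufa4l2 had 0 counts in every library, as did a second row named Atp5o. A count of 0 allows up to 3 counts, or 0.0753 to 0.101 CPM in these libraries, for counting error only.

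Cox6b2, the testis form of Cox6b1, was at 0.296, 0.212 and 0.752 CPM in control 1, 2 and 4 and at 0.475, 0.927 and 7.67 CPM in knockout 1, 4 and 5. Only knockout 5 stood out, with 241 counts against 7 to 32 in the other 5 libraries. The common form Cox6b1 lay between 63.1 and 109 CPM in the same libraries. With the tag in the fit, edgeR's quasi-likelihood test put the genotype difference of Cox6b2 at 1.90 ± 0.90 (log2, SE) with an adjusted p of 0.204. Without knockout 5 the edgeR values were 0.57 and 0.392. The call depended on the setting: it passed without knockout 4 (2.42, edgeR adjusted p 0.0373) and without a filter on low counts (1.87, edgeR adjusted p 1.82e-05).

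The genotype comparison asks how loss of Prmt5 changed these transcripts in activated cells. Fitted without the tag, edgeR's quasi-likelihood test called no gene of 15685 at an adjusted p under 0.05, and so no member; 1780 genes (11.3%) and 3 members had an unadjusted p under 0.05. The 3 were Ndufaf1, Uqcrq and Cox6b2, with adjusted p-values of 0.332, 0.256 and 0.385. The median log2 fold change, knockout over control, was -0.05 over members and 0.01 over all genes, with 61 of 101 members and 49% of all genes below 0. This direction turned without control 4 (median 0.075, 32 of 101 below 0) and without knockout 1 (median 0.087, 33 of 101 below 0). DESeq2 on the same counts called 442 genes, 1 of them a member, and limma-voom called 0.

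With the tag as a term, edgeR's quasi-likelihood test called 8 of 101 members lower in the knockout libraries and none higher. They were 2 core subunits of complex I (Ndufs3, Ndufs8), 3 accessory subunits (Ndufa6, Ndufc1, Ndufv3), the assembly factor Ndufaf1, Uqcrq of complex III and Atp5j of the ATP synthase. Over all genes that fit called 570 lower (3.63%) and 450 higher (2.87%), 6.5% in either direction, and 36 members had an unadjusted p under 0.05 against 29.1% of genes. The direction was shared more widely: 91 of 101 members were below 0 against 47.9% of all genes, and the median log2 fold change was -0.18 against 0.02. By role the medians were -0.20 for complex I core, -0.18 for complex I accessory, -0.21 for complex II, -0.16 for complex III, -0.20 for nuclear complex IV, -0.16 for nuclear complex V and -0.05 for the assembly factors. No member of complex II or IV passed the edgeR test. In the same design DESeq2 called 17 members lower and 2 higher.

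Uqcrq, a small subunit of complex III (chr11:53427922-53430831, minus strand; positions here are those of GENCODE M21 on GRCm38), was at 55.7, 62.3 and 65.3 CPM in control 1, 2 and 4 and at 37.5, 46.0 and 36.7 CPM in knockout 1, 4 and 5. Every knockout library was below every control library, and the 2 tags overlapped. Knockouts differed by -0.66 ± 0.12 (log2 fold change, SE; edgeR adjusted p 0.0298), or -0.65 within CCPF22 and -0.67 within CCPF24. The authors' deposited table also calls Uqcrq lower in activated knockout cells, with a log2 difference of -0.54 and an adjusted p of 0.0125. Deposited genotype differences appear to be shrunken toward 0, so the 2 sizes are not like measures.

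Ndufaf1, which assembles the membrane arm of complex I (chr2:119655446-119662827, minus strand), was at 27.1, 30.9 and 31.4 CPM in control 1, 2 and 4 and at 18.9, 24.0 and 21.6 CPM in knockout 1, 4 and 5. The groups did not overlap, and its tag difference was 0.19 ± 0.12 with an edgeR adjusted p of 0.272. The genotype log2 fold change was -0.54 ± 0.12, with an edgeR adjusted p of 0.0461. In the authors' deposited table, on its apparently shrunken scale, it is -0.43 with an adjusted p of 0.0124. None of the 7 other tested assembly factors was called, and Ndufaf3, Ndufaf4 and Ndufaf6 had estimates above 0.

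Ndufv3, an accessory subunit of the NADH-oxidising module (chr17:31520115-31531331, plus strand), was at 95.1, 114 and 241 CPM in control 1, 2 and 4 and at 58.3, 163 and 110 CPM in knockout 1, 4 and 5. Each knockout was below the controls of its own tag, yet knockout 4 was above control 1 and 2. The genotype difference was -0.83 ± 0.16 and the tag difference 1.22 ± 0.16, the widest called tag difference of any nuclear member, with edgeR adjusted p-values of 0.0345 and 0.00268.

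Ndufc1, a small accessory subunit (chr3:51404677-51408988, minus strand), was at 27.9, 29.8 and 40.4 CPM in control 1, 2 and 4 and at 17.2, 25.3 and 29.0 CPM in knockout 1, 4 and 5, with a genotype difference of -0.66 ± 0.12 and an edgeR adjusted p of 0.0311. Ndufa6, an accessory subunit at the join of the arms (chr15:82350140-82354322, minus strand), was at 54.5, 59.5 and 89.8 CPM in control 1, 2 and 4 and at 37.9, 63.3 and 72.1 CPM in knockout 1, 4 and 5, with a difference of -0.50 ± 0.10 and an edgeR adjusted p of 0.0391. For both genes the groups overlapped over all libraries, because CCPF24 values were higher in each genotype, and the knockouts were below the controls inside each tag.

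Ndufs3, a core subunit of the peripheral arm (chr2:90894634-90904827, minus strand), was at 71.2, 75.3 and 121 CPM in control 1, 2 and 4 and at 56.6, 93.4 and 86.0 CPM in knockout 1, 4 and 5. Here too the groups overlapped over all libraries and separated inside each tag, with a difference of -0.40 ± 0.09 and an edgeR adjusted p of 0.0417. Of its 50-base windows 16.1% also occur in a transcript of Gm12251. Ndufs8, a core subunit that binds iron-sulfur clusters (chr19:3908863-3912774, minus strand), was at 81.4, 81.0 and 104 CPM in control 1, 2 and 4 and at 65.6, 81.9 and 75.2 CPM in knockout 1, 4 and 5. Knockout 4 was level with control 1 and 2, which have the other tag. Atp5j, coupling factor 6 of the ATP synthase (chr16:84827866-84835625, minus strand), was at 90.5, 96.6 and 135 CPM in control 1, 2 and 4 and at 74.5, 107 and 103 CPM in knockout 1, 4 and 5. These 2 lay closest to the threshold, with differences of -0.36 ± 0.09 and -0.35 ± 0.08 and edgeR adjusted p-values of 0.0496 each.

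**Figure D1:**
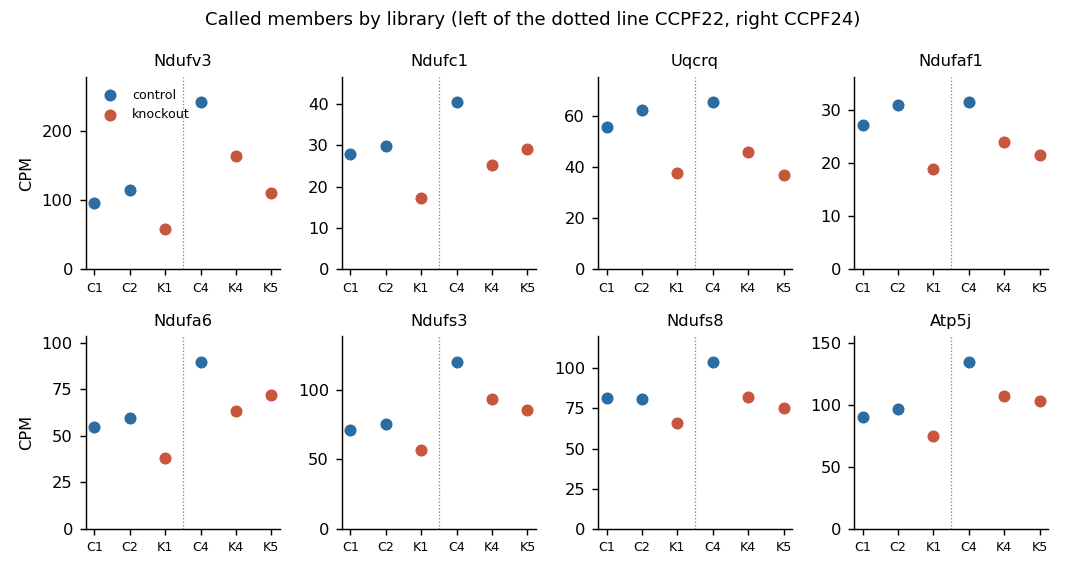
Scaled level (CPM, y axes from 0, linear) of the 8 members called lower in knockout libraries when the tag is in the fit, 1 panel a gene and 1 point a library (C control, K knockout, number as in the titles). Inside each tag every knockout point is below the control points, whereas over all libraries the groups separate only for Uqcrq and Ndufaf1.

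Among the members that did not pass, Cox5a and Sdhc, named with the rule as pathway markers, also had every knockout below every control. Cox5a, a subunit that joins the complex IV core early in assembly, averaged 88.2 ± 6.01 CPM (SD, n = 3) in controls and 74.5 ± 3.06 CPM (n = 3) in knockouts, with an edgeR adjusted p of 0.112. Sdhc, a membrane anchor of complex II, averaged 39.2 ± 6.34 and 33.0 ± 2.10 CPM (SD, n = 3 each), with an edgeR adjusted p of 0.106. In all, 5 of 101 members had knockouts wholly below controls, against 8.68% of all genes, and none had them wholly above, against 9.35%. The share is below that of all genes in both directions.

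These calls depended on the libraries and the scaling. All 8 kept a negative estimate in each of the 12 alternatives run, but none passed without control 1, without control 2, without control 4 or without knockout 1, where 149, 3, 0 and 0 genes were called in all. Without knockout 5, 4 members and 993 of 16181 genes were called. Without knockout 4, 13 members (12 lower, 1 higher) and 2056 of 16180 genes were called, a share of members close to that of all genes. Scaling to the ERCC spike-ins, RNAs added in known amounts, moved the median of all genes to -0.44 and left no member called, and scaling to total gene counts left 3; the member median stayed 0.21 below that of all genes under each.

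Tag differences were larger and more frequent than genotype differences. With genotype in the fit, edgeR's quasi-likelihood test called 57 of 101 members higher in CCPF24 and 3 lower, against 2461 genes higher (15.7%) and 2584 lower (16.5%) among 15685, together 32.2%. An unadjusted p under 0.05 was reached by 74 members and by 44.2% of genes, and 10 members were below 0 against 48.4%. The median log2 fold change, CCPF24 over CCPF22, was 0.44 over members and 0.02 over all genes. The summed CD8 and CD4 T cell markers were also higher in every CCPF24 library. Among the single markers only Cd3g and Cd8b1 were, and Cd3e was lower in every CCPF24 library. The part of these markers was not tested. The split went only in part with the genome of origin. Of 89 nuclear members 55 were higher, none was lower and 86 were above 0, with a median of 0.46, whereas of 12 mitochondrial members 2 were higher and 3 lower, with a median of -0.10. The 3 mitochondrial members of complex IV were all above 0, 2 of them called, with a median of 0.64. Of 6 tested mitochondrial members of complex I, 5 were below 0 and 3 called lower, with a median of -0.47. The median of the 2 in complex V was -0.01, and complex III had 1, at -0.42.

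Among nuclear groups, complex IV had the highest median, 0.67, with 11 of 14 members higher. Complex I accessory subunits followed with 21 of 29 higher (median 0.49), complex V with 10 of 17 (0.49), complex I core with 5 of 7 (0.34), complex III with 5 of 9 (0.37), complex II with 2 of 4 (0.34), and Cycs, the gene of cytochrome c, was higher by 0.49 ± 0.08. None of the 8 assembly factors was called, and their median was 0.18.

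Cox7c, a small subunit of complex IV, was at 116, 142 and 78.1 CPM in control 1, control 2 and knockout 1 and at 198, 185 and 169 CPM in control 4, knockout 4 and knockout 5. The tags did not overlap, and the log2 difference was 0.90 ± 0.15 with an edgeR adjusted p of 0.00522. Cox7a2l, which helps complexes III and IV join, was at 131, 140 and 117 CPM in CCPF22 and at 232, 194 and 224 CPM in CCPF24, a difference of 0.80 ± 0.10 with an edgeR adjusted p of 0.00218. Cox8a, the most abundant nuclear complex IV member per length, averaged 174 ± 25.0 CPM (SD, n = 3) in CCPF22 and 264 ± 6.74 CPM (n = 3) in CCPF24. In all, 61 of 89 nuclear members had CCPF24 wholly above CCPF22, against 19% of all genes, and none had it wholly below, against 19.6%.

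Cyc1, the cytochrome c1 of complex III, went the other way without passing the test, at 122, 110 and 102 CPM in CCPF22 and 93.5, 105 and 89.3 CPM in CCPF24 (log2 difference -0.19 ± 0.11, edgeR adjusted p 0.216). Sdha and Uqcrc1, the flavoprotein of complex II and a core protein of complex III, had differences of 0.20 and 0.21 that did not pass either, with edgeR adjusted p-values of 0.131 and 0.153.

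**Figure D2:**
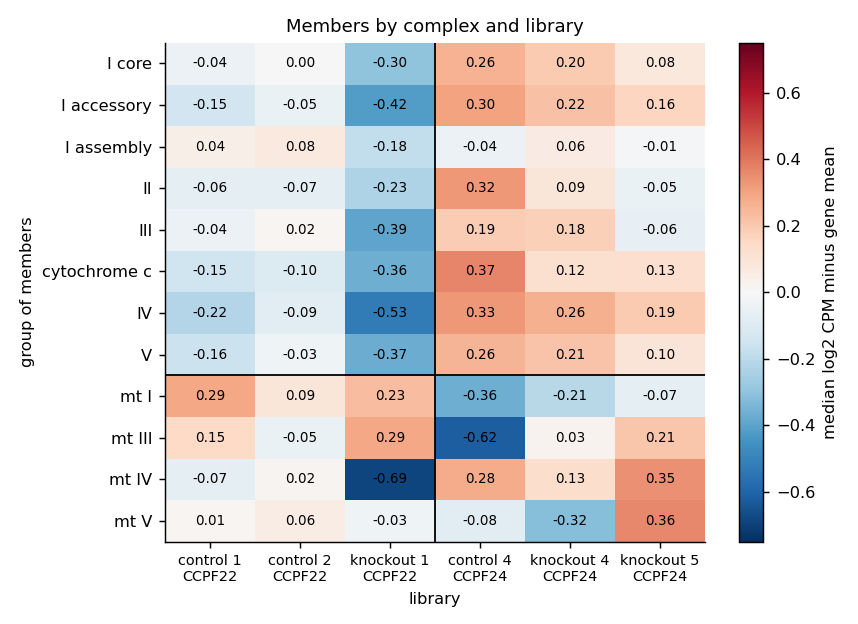
Median over the tested members of each group of the log2 CPM minus the gene's own mean over the 6 libraries (colour and printed value), for nuclear groups above the horizontal line and mitochondrially encoded (mt) groups below it, with CCPF22 libraries left of the vertical line. Nuclear complex IV runs from -0.53 in knockout 1 to 0.33 in control 4, and mitochondrial complex I goes the other way between the tags.

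Gene length moved with the tag difference. The 89 nuclear members have a median length of 1200 bases in the authors' table, against 3362 for 11906 other tested protein-coding genes. Among the other genes the median tag difference was 0.39 under 1000 bases, 0.24 from 1000 to 2000, 0.06 from 2000 to 4000 and -0.13 from 4000 bases up. The nuclear members stood at 0.50 (39 genes), 0.47 (30 genes) and 0.29 (16 genes) in the first 3 of these ranges and at 0.20 in the last, which holds 4. Tag differences above 0 were found for 78.9%, 69.5%, 55.3% and 39.2% of the other genes in the same order. For the nuclear members these shares were 97.4%, 96.7%, 93.8% and 100%. The genotype difference also went with length, with medians of -0.16, -0.10, -0.02 and 0.06 over the other genes in the same order and -0.20, -0.22, -0.13 and -0.13 over the members. The part of length in either result was not tested.

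The tag counts depended on the libraries, for members and for all genes alike. Without knockout 1, 14 members were called in place of 60, and 1284 of 16143 genes in place of 5045 of 15685. Without control 4, 39 members and 1653 of 16223 genes were called. The member median for the tag stayed between 0.35 and 0.53 when each library was left out in turn. Under ERCC scaling the median tag difference of all genes moved to -0.30 and that of members to 0.11, with 2 members called, so the direction of the members was relative to that of all genes. The distance between the members' median and that of all genes was 0.41 under both scalings.

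Whether the genotype difference itself changed with the tag was tested as an interaction. EdgeR's quasi-likelihood test called no gene; 996 genes (6.35%) and 8 members had an unadjusted p under 0.05, while DESeq2 called 39 genes, limma-voom 0, and no filter on low counts gave 250. The interaction estimate was below 0 for 22 members against 46.9% of genes. The members' median difference, knockout minus control, was -0.26 within CCPF22, where 92 of 101 were below 0, and -0.08 within CCPF24, where 67 were. Over all genes these medians were 0.01 and 0.02. A total of 65 members were below 0 inside both tags, against 33.3% of all genes. Each tag holds a single library of 1 genotype, so these medians rest on knockout 1 in CCPF22 and on control 4 in CCPF24.

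**Figure D3:**
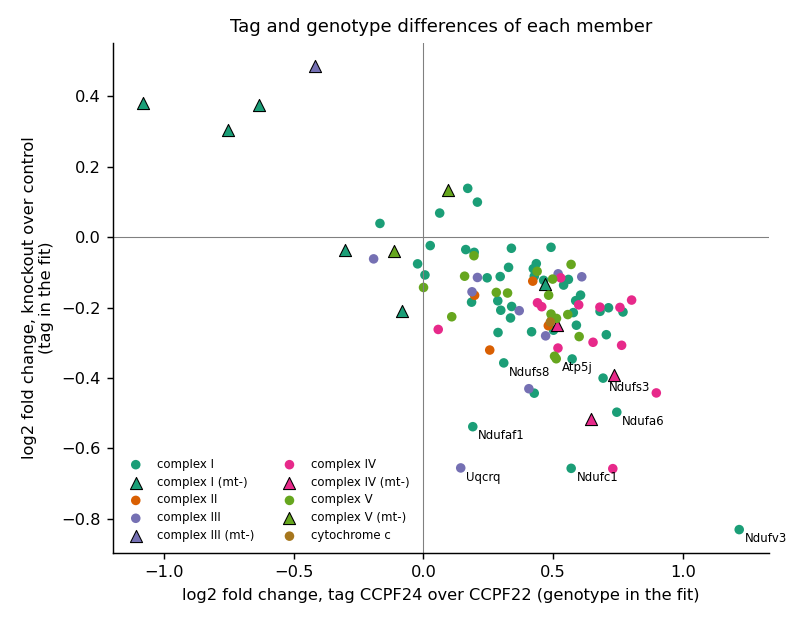
Log2 fold change between tags (x axis) and between genotypes (y axis) of 100 tested members from 1 fit holding both terms, coloured by complex, circles nuclear and triangles mitochondrially encoded; Cox6b2 lies outside the axes at 2.44 and 1.90. The called members are labelled, most points lie right of and below 0, and the mitochondrial genes mt-Nd2, mt-Nd4, mt-Nd5 and mt-Cytb lie to the upper left. Both estimates share libraries, so their joint slope is no result.

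The mitochondrially encoded mRNAs together took 1.02%, 1.06% and 1.18% of gene counts in control 1, 2 and 4 and 0.849%, 0.944% and 1.14% in knockout 1, 4 and 5. The groups overlapped, and the difference of -0.104 percentage points had a two-sided exact permutation p of 0.4, where 3 against 3 cannot go below 0.1. Set against the ERCC spike-in counts, the log2 ratio of mitochondrial mRNA was 0.26, 0.89 and 0.16 in control 1, 2 and 4 and -0.58, -0.11 and -0.25 in knockout 1, 4 and 5. On that scale every knockout was below every control, by -0.75 on average, with a two-sided exact permutation p of 0.1, the smallest possible here; it was -1.16 within CCPF22 and -0.34 within CCPF24. The nuclear members differed by -0.62 on the same scale (two-sided exact permutation p 0.3). All genes moved in that direction too. With ERCC scaling in the fit without the tag, the median genotype difference was -0.59 over all genes and -0.63 over mitochondrial members. ERCC counts were 0.846%, 0.566% and 1.04% of gene and ERCC counts together in control 1, 2 and 4 and 1.25%, 1.01% and 1.35% in knockout 1, 4 and 5. Wilson 95% intervals reach at most 0.00374 points to either side of the mitochondrial mRNA shares of gene counts, for counting error only. The nuclear members took 1.08%, 1.14% and 1.35% in controls and 0.979%, 1.32% and 1.24% in knockouts. The log2 ratio of mitochondrial to nuclear member counts differed by -0.14, knockout minus control, with a two-sided exact permutation p of 0.2. That ratio rests largely on mt-Co1, which supplied 56.6% to 83.1% of mitochondrial mRNA counts per library. With mt-Co1 left out the sign turned: the difference was 0.13 with a two-sided exact permutation p of 0.8, and it was 0.40 within CCPF22 and 0.47 within CCPF24.

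Within the mitochondrial set the tags moved different mRNAs in opposite directions. mt-Nd5, a proton-pumping subunit of complex I, was at 637, 456 and 738 CPM in control 1, control 2 and knockout 1 and at 268, 315 and 358 CPM in control 4, knockout 4 and knockout 5. The tags did not overlap, and the log2 difference was -1.08 ± 0.15 with an edgeR adjusted p of 0.00276. Also lower in CCPF24 were mt-Nd4 (-0.75 ± 0.12, edgeR adjusted p 0.0045) and mt-Nd2 (-0.63 ± 0.12, edgeR adjusted p 0.00807), further membrane-arm subunits of complex I.

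mt-Co1 was at 6825, 7677 and 4515 CPM in control 1, control 2 and knockout 1 and at 10090, 7304 and 8551 CPM in control 4, knockout 4 and knockout 5. The tags overlapped, since knockout 4 was below control 2; the log2 difference was 0.64 ± 0.16 with an edgeR adjusted p of 0.0179. mt-Co3, a further core subunit of complex IV, was higher by 0.73 ± 0.21 with an edgeR adjusted p of 0.0301. Of the 50-base windows of mt-Co3, 99.9% also occur in transcripts of other genes, and 51.1% of those of mt-Co1. Both levels, and the shares that follow, are uncertain to that extent. mt-Co1 supplied 65.1 ± 7.95% (SD, n = 3) of mitochondrial mRNA counts in CCPF22 and 77.7 ± 4.69% (n = 3) in CCPF24, with an exact two-sided permutation p of 0.1, the smallest that 3 against 3 allows.

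mt-Nd1 and mt-Cytb, of complexes I and III, had tag differences of -0.30 and -0.42 that did not pass (edgeR adjusted p 0.112 and 0.0615). mt-Nd6, which alone among the 13 is read from the opposite strand, was at 18.9, 18.2 and 18.4 CPM in control 1, 2 and 4 and at 16.8, 15.1 and 15.3 CPM in knockout 1, 4 and 5. Its knockouts were all below its controls, but the genotype difference was -0.21 ± 0.12 with an edgeR adjusted p of 0.289. It overlaps mt-Nd5 on the other strand by 14 bases. No mitochondrial member was called between genotypes; the estimates ran from -0.52 for mt-Co1 to 0.49 for mt-Cytb, each with an edgeR adjusted p of 0.0807.

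Levels of several mitochondrial mRNAs are uncertain because copies of their sequence lie in the nuclear genome. All 50-base windows of mt-Co2, 99.9% of mt-Co3, 99.5% of mt-Atp6, 98.8% of mt-Nd4l and 98.0% of mt-Nd3 also occur in transcripts of other annotated genes, the chromosome 1 pseudogenes Gm28661, Gm28437, Gm10925, Gm10222 and Gm28438. These 5 mRNAs were listed at 15.05, 25.3, 5.85, 0.307 and 4.54 CPM per kb. mt-Nd1, mt-Cytb, mt-Nd6 and mt-Atp8 share no window and were at 1123, 647, 33.0 and 1.94 CPM per kb. mt-Co1 shares 51.1% and mt-Nd4 62.2% of windows. The sources do not say how reads with several matches were counted. Among the 89 nuclear members 75 share under 10% of windows and none shares 50% or more.

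**Figure D4:**
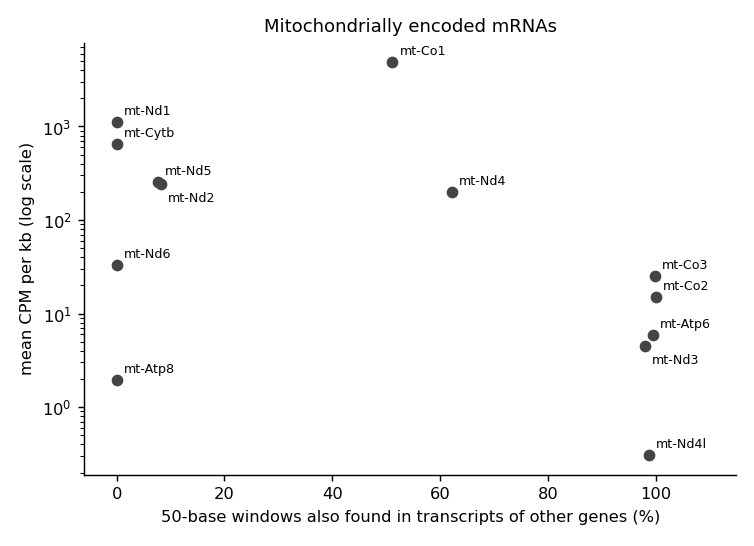
Mean level of the 13 mitochondrially encoded mRNAs over the 6 libraries (y axis, CPM per kb, log scale) against the percentage of their 50-base windows that also occur in transcripts of other genes (x axis). The 5 mRNAs at 98.0% or more lie between 0.307 and 25.3 CPM per kb, and mt-Atp8, a short mRNA overlapping mt-Atp6 by 43 bases, is low with no shared window.

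Promoter sequences were read because many respiratory genes are known targets of the transcription factor NRF1, whose palindromic motif is the run in capitals in the windows below. RefSeq windows on GRCm38.p6 exist for 77 of the 96 nuclear members. In the 250 bases before a RefSeq start the motif, the same on both strands, was found in 5 of 77 members (6.49%) and in 237 of 27018 genes (0.877%). CCGGAAGT, an ETS family motif, was found on either strand in 3 members (3.90%, all genes 3.23%), AAGATGGC of YY1 in 1 (1.30%, all genes 1.82%) and TCAAGGTCA of the estrogen-related receptors in 1 (1.30%, all genes 0.422%). No found motifs overlapped. A RefSeq start need not be the outer end of the gene in GENCODE M21. The Atp5g2 window lies inside the M21 gene (chr15:102662864-102672352). The Atp5k window lies partly inside its M21 gene (chr5:108433244-108434448). The 5 windows with the NRF1 motif are shown, 5′ to 3′ on the gene's strand, with the motif in capitals.
Cox6a1, chr5:115348959-115349208 (- strand): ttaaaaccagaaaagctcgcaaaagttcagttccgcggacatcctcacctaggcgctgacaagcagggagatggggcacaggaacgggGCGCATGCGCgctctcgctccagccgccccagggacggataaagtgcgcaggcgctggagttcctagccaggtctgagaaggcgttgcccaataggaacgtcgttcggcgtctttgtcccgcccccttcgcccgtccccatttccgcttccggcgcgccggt
Ndufa11, chr17:56717512-56717761 (+ strand): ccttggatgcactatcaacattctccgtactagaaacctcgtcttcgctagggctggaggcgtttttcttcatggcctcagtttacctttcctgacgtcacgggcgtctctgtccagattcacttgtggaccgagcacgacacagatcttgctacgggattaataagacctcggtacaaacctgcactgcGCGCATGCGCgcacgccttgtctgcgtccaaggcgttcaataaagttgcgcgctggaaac
Atp5k, chr5:108434400-108434649 (- strand): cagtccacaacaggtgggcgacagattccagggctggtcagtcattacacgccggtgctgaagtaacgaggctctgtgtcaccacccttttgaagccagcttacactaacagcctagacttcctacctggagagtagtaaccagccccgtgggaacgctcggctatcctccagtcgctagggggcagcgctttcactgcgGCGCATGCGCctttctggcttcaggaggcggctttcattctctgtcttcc
Atp5g2, chr15:102671048-102671297 (- strand): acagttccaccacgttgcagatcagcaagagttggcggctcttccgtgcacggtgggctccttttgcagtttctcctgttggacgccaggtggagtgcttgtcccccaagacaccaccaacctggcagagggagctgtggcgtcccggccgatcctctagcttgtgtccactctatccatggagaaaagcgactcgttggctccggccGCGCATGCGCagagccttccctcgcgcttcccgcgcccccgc
Ndufaf4, chr4:24897833-24898082 (+ strand): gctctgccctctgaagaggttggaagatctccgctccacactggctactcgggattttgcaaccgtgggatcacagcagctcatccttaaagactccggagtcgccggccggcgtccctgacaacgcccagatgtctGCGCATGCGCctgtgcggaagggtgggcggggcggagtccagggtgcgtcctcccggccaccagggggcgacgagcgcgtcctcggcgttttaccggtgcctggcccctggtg

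The motif begins between 162 and 42 bases before the RefSeq start in these genes. Their values did not share a pattern: Cox6a1, Ndufa11 and Atp5k were higher in CCPF24 (0.52, 0.59 and 0.50, edgeR adjusted p 0.00865, 0.00422 and 0.0167), while Atp5g2 and Ndufaf4, an assembly factor, were not called (0.19 and -0.17, edgeR adjusted p 0.26 and 0.34). None of the 5 was called between genotypes, with estimates from -0.31 for Cox6a1 to 0.04 for Ndufaf4. A match describes these letters and is no evidence of binding.

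Activation is covered by the authors' deposited table of comparisons, whose unstimulated columns could not be tied to samples here and were not used. By the authors' deposited table, 82 of 101 members are higher in activated than in resting control cells, where 27.7% of 19882 genes are, and 2 are higher at rest, where 42.8% are. The median log2 difference, activated over resting, is 1.13 over members and -0.32 over all genes. By the same table, 80 of 101 members are higher after activation of knockout cells (25.8% of all genes) and 1 is lower (35.4%), with a median of 1.004 against -0.24.

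By genome of origin, the medians of the members also differed in the authors' deposited table. Nuclear members have medians of 1.22 in control and 1.08 in knockout cells, with 80 and 76 of 89 higher. Mitochondrial members have medians of 0.19 and 0.23, with 2 of 12 (mt-Nd1, mt-Nd5) and 4 of 12 higher, and mt-Atp6 passes as lower in control cells (adjusted p 0.0166) and not in knockout cells (0.668). mt-Co1 stands at 0.13 and -0.10 in the authors' deposited table, without passing.

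The largest values in the authors' deposited table for control cells are Cox5a at 2.30, Cycs at 2.19, Uqcrq at 2.15 and Atp5b at 2.10, and the knockout values of these genes are 1.89, 2.12, 1.59 and 1.81. Ndufaf3, a complex I assembly factor, is lower after activation in both genotypes (-0.53 and -0.51, the authors' deposited table's adjusted p 0.0184 and 0.0244). Cox7a2l (-0.45 and -0.53) and Ndufa6 (0.29 and -0.07) do not pass in the authors' deposited table in either genotype. Group medians in control cells, in the authors' deposited table, are 1.54 for complex III, 1.36 for nuclear complex IV, 1.31 for nuclear complex V, 1.21 for complex II, 1.13 for complex I accessory, 0.96 for complex I core and 0.84 for assembly factors. The knockout medians of these groups, in the same order and from the authors' deposited table, are 1.28, 1.30, 1.11, 1.06, 0.97, 0.81 and 0.69. Whether activation differed between genotypes was not tested, and the activated libraries enter both this contrast and the genotype contrast.

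**Figure D5:**
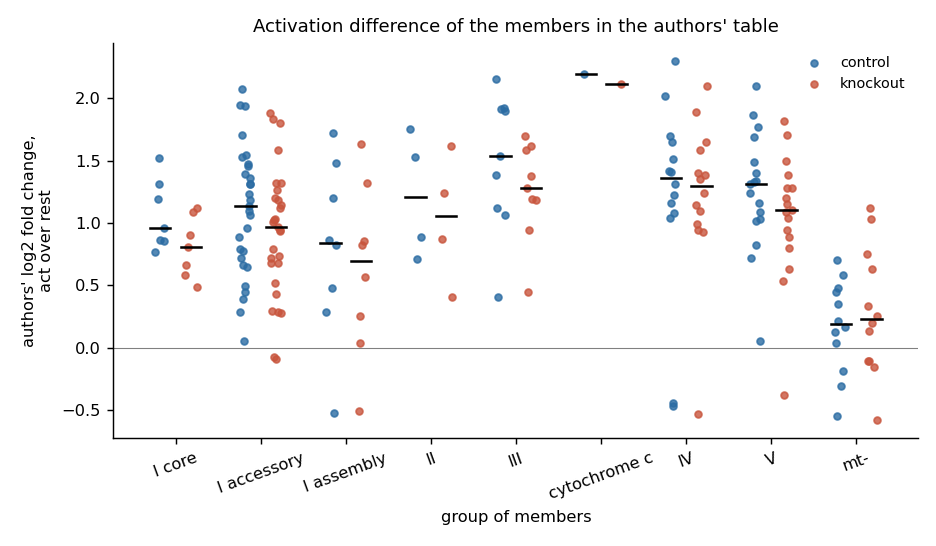
The authors' deposited log2 fold change between activated and resting cells (y axis; above 0 is higher after activation) for each tested member, by group of members (x axis; mt- are the mitochondrially encoded genes), in control and knockout cells, with black bars at the medians. Nuclear groups lie mostly above 0, with medians from 0.69 to 2.19, and the mitochondrial group has medians of 0.19 and 0.23.

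In resting cells the authors' deposited table calls no member between genotypes and 3 genes in all (0.0101% higher in control, 0.00503% higher in knockout). In activated cells the authors' deposited table calls Ndufaf1 and Uqcrq lower and Cox6b2 higher in knockouts, among 99 members with a p-value, where 2.95% and 3.15% of 15636 genes are called in those directions. For Cox6b2 the authors' deposited log2 difference is 0.085 (their adjusted p 0.0377). Deposited genotype differences appear to be shrunken toward 0, with a member median of 1.56e-06 in resting cells, knockout over control. Their sizes are thus not on the scale of the edgeR estimates. Cox6b2 had few counts in most libraries. Its counts were 241 in knockout 5 and 7 to 32 in the other libraries.

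Other genes of mitochondrial function were read from lists, beside the 3.63% of all genes that this fit called lower. Of 37 tested assembly factors outside the rule, 2 fell with the tag in the fit, near that share: Surf1, which assembles complex IV, from 25.6, 26.5 and 43.4 CPM in control 1, 2 and 4 to 18.6, 21.9 and 24.7 CPM in knockout 1, 4 and 5 (-0.69 ± 0.13, edgeR adjusted p 0.0345), and Foxred1, a complex I factor (-0.41 ± 0.10, edgeR adjusted p 0.0463). Their list had a median of -0.12. Of 13 tested genes of the tricarboxylic acid cycle, which supplies NADH, 2 fell, the isocitrate dehydrogenase subunits Idh3g (-0.54 ± 0.08, edgeR adjusted p 0.0235) and Idh3b (-0.39 ± 0.08, edgeR adjusted p 0.041), and the median was -0.18. Of 23 tested genes of mitochondrial biogenesis and transcription, 1 fell, the mitochondrial single-stranded DNA-binding protein Ssbp1 (-0.39 ± 0.09, edgeR adjusted p 0.0473), and the median was -0.03. The count in each list is 1 or 2 genes. No gene of these 3 lists passed the edgeR test as higher.

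Between the tags, 1 gene of the biogenesis list, Slirp, which stabilises mitochondrial mRNAs, was higher in CCPF24 (0.68 ± 0.13, edgeR adjusted p 0.00809) and 5 were lower, with a list median of -0.02, among them the coactivators Ppargc1b (-1.73 ± 0.19, edgeR adjusted p 0.00197) and Pprc1 (-1.34 ± 0.16, edgeR adjusted p 0.00204). Pprc1 was at 124, 99.5 and 149 CPM in control 1, control 2 and knockout 1 and at 38.2, 76.7 and 59.4 CPM in control 4, knockout 4 and knockout 5, with no overlap. Tfam, the mitochondrial transcription and packaging factor, had a tag difference of 0.00 with an edgeR adjusted p of 0.996. The assembly factors outside the rule had 8 higher and 3 lower, and the tricarboxylic acid cycle 4 higher and 2 lower, where 15.7% of all genes were higher and 16.5% lower.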

How the data were processed

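Raw counts per gene were deposited by the authors, and STAR, featureCounts, DESeq2 and build GRCm38.p3 are named in the submitters' processing notes; those notes name no version, multi-mapping or strand setting. The same table holds the authors' log2 fold changes and p-values, their mean signal per group and a gene length in bases (other). The deposited log2 values were read as first-named over second-named group: the sign followed the deposited means for 99.57% of 11405 genes. A further 12 per-sample columns match no sample here and were not used. Genes were kept by filterByExpr (minimum count 10, total 15) after the 92 ERCC rows were set aside, and tested with edgeR 4.0.16 (TMM, quasi-likelihood, R 4.3.3, Benjamini-Hochberg over 15685 genes, threshold 0.05) on genotype, on genotype with the column-name tag, and on their interaction; scripts were tested on simulated data. DESeq2 1.42.0, limma 3.58.1 (voom), other scalings, no filter and leaving out each library were alternatives. Shares were compared by exact permutation (scipy 1.17.1). Members, lists and tests were chosen with earlier results of these data known. Genes named were Prmt5, the pathway markers, every called member, the mitochondrial mRNAs, alternative subunits and, per role group, those with the smallest p-values and the highest level; Cyc1, Ndufaf3, Tfam, Atp5a1, Atp5s, those with the NRF1 motif and those with extreme deposited values were chosen after values were seen or by sequence, as were the ranges of gene length. Counting error is small at 29623513 or more counts per library, so spread between the 3 libraries of a group sets the precision.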

Additional observations from a re-analysis of the deposited data

How the results depend on the processing

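Counts of calls moved with tool, filter and scaling. DESeq2 with its size factors called 442 genes for genotype (1 member) and 39 for the interaction. With the tag in the fit it called 2378 of 15685 genes, among them 19 members (17 lower, 2 higher). That fit also called 7 of 37 assembly factors outside the rule and 5 of 23 biogenesis genes. Without a filter on low counts, 720 genes (1 member) were called for genotype and 250 for the interaction. With the tag in the fit that setting called 2944 genes and 15 members (11 lower, 4 higher). For genotype, genotype with tag, interaction and tag, ERCC scaling gave 273 genes (1 member), 393 (0 members), 3 and 1148 (2 members). Member medians were -0.62, -0.65, 0.87 and 0.11 in that order. The medians of all genes under this scaling were -0.59, -0.44, 0.69 and -0.30 in the same order. Total gene counts left 3 members called with the tag in the fit and an interaction median of 0.13. Titles share the numbers 1 and 4, which also share a tag; same-numbered libraries correlated at 0.58 and 0.43, too few to show pairing, and the fit with the replicate block called 768 genes and 4 members for genotype.

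Leaving out each library in turn gave 0 to 0 calls for genotype, 0 to 2056 genes and 0 to 13 members with the tag in the fit, 1284 to 5202 genes and 14 to 60 members for the tag, and 0 to 114 genes for the interaction, which could not be fitted without control 4 or knockout 1. Member medians ran from -0.15 to 0.087 (genotype; 0.075 without control 4 and 0.087 without knockout 1), -0.27 to -0.10 (with tag), 0.35 to 0.53 (tag) and 0.14 to 0.22 (interaction). The mitochondrial share ran from -0.187 to -0.0393 points and the mitochondrial to nuclear ratio from -0.21 to -0.03.

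Among single genes, 35 values changed sign. For genotype with the tag in the fit, the values that changed sign were, under ERCC scaling Ndufaf4 -0.42, mt-Atp6 -0.33, mt-Nd2 -0.075, mt-Nd4 -0.15 and mt-Nd5 -0.063, under total gene counts mt-Atp8 0.027 and mt-Nd1 0.028, and, as ranges when leaving out each library, Cox7a2 -0.47 to 0.039, Ndufaf2 -0.52 to 0.11, Ndufaf4 -0.19 to 0.24, mt-Atp8 -0.43 to 0.21, mt-Co2 -0.64 to 0.086, mt-Co3 -0.85 to 0.018, mt-Nd1 -0.23 to 0.13 and mt-Nd3 -0.72 to 0.36. For the tag, the values that changed sign were, under ERCC scaling Atp5b -0.039, Cox5a -0.26, Ndufaf1 -0.14, Ndufaf5 -0.031, Ndufaf6 -0.12, Ndufs8 -0.014, Sdha -0.12, Sdhc -0.069, Uqcrc1 -0.11, Uqcrq -0.18 and mt-Atp6 -0.24, under total gene counts Cox5a -0.017, and, as ranges when leaving out each library, Ndufaf4 -0.37 to 0.056, mt-Atp6 -0.013 to 0.22, mt-Atp8 -0.47 to 0.13 and mt-Nd3 -0.037 to 1.04. The cause was not tested. The other values of single genes kept their sign, 946 with the same call, 113 losing it and 33 gaining it. Depth limits mt-Atp8, with 7 to 18 counts a library, and mt-Nd4l, with 2 to 5.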

Other observations

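Ndufb1-ps, annotated in the count table as a bidirectional promoter lncRNA and so outside the rule, had 1729, 2000 and 3487 counts in control 1, 2 and 4 and 1301, 2786 and 2442 counts in knockout 1, 4 and 5. The chromosome 1 pseudogenes that share sequence with mitochondrial mRNAs had counts of their own: Gm28438 had 153, 155, 219, 105, 184 and 229 counts and Gm28437 had 113, 173, 226, 95, 204 and 190 counts in the same order of libraries. Gm28437, which matches mt-Co3, and mt-Co3 itself, with 555, 642, 895, 331, 808 and 764 counts, were both lowest in knockout 1. These are counts as deposited, not scaled. Knockout 1 had the fewest counts on genes, 29623513 against 30674897 in control 1. After scaling, the median of the mitochondrial complex IV members was also lowest in knockout 1, at 13.4 CPM per kb against 23.3 to 31.0 in the other libraries.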
